A study of Mus musculus with 12 samples.

Results

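The genes described here are 10 outputs of the circadian clock: the period genes Per1, Per2 and Per3, the cryptochrome genes Cry1 and Cry2, the nuclear receptor genes Nr1d1 and Nr1d2, and Dbp, Tef and Hlf, which encode the transcription factors of the PAR bZIP family. They were chosen by name, and each was read from an array row assigned to that gene alone, taking the row with the highest mean over all 12 arrays where there were several. Of the 10 genes 9 had such a row, among 20259 genes of the array that did, and all 9 lay above the filter on low signal that left 15896 genes for testing. Per2 is not reported as a gene, because its row is also listed under the transcript 9830107B12Rik.

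The tissue was interscapular brown fat. It came from 12 females of the C57BL/6 strain at 12 weeks of age, housed at 30 °C for the last 2 weeks, and each mouse had 1 array. All mice carried floxed Cpt2 alleles (Cpt2f/f). The 6 control mice, called wild type here, had no other allele named, and the 6 knockout mice (adiponectin-Cre;Cpt2f/f) had in addition a Cre transgene driven by the promoter of adiponectin, an adipocyte gene, so other cells of the tissue keep Cpt2. Its enzyme, carnitine palmitoyltransferase 2, acts in the inner mitochondrial membrane and is needed to burn long-chain fat. In each genotype 3 mice were injected intraperitoneally with saline and 3 with CL316243 at 10 mg/kg, which activates β3-adrenergic receptors, and were dissected after 3 h. The labels give no hour of the day for injection or dissection. Values are log2 signals as deposited, so a difference of 1 is a doubling, and signals of different genes are not compared with each other. Array replicates are called array 1, 2 and 3 of a group.

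In the clock of mammalian cells, the CLOCK and BMAL1 proteins (BMAL1 is encoded by Arntl) bind E-boxes and switch on the Per, Cry and Nr1d genes and Dbp, Tef and Hlf. The PER and CRY proteins then repress CLOCK and BMAL1, while NR1D1 and NR1D2 (REV-ERBα and REV-ERBβ) repress Arntl and Nfil3 through ROR elements. DBP, TEF and HLF activate genes that carry a D-box, a site where NFIL3 acts as a repressor, and Per1 can also be switched on quickly by cAMP through CREB and by glucocorticoids. In brown fat, the clock is known for daily rhythms of thermogenic and lipid genes, and NR1D1 is known as a repressor of Ucp1.

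The start regions of 4 clock genes whose signals differed between groups are shown with Arntl, chosen because each holds a motif match. Tef, with an E-box at both starts, and Cry2 and Dbp, with no match, also differed and are not shown. The regions are from RefSeq on build GRCm38.p6, run from 250 bases before to 50 bases after a transcript start, and are written on the gene's strand. Capitals mark matches on either strand to 4 kinds of motif, which did not overlap each other: the E-box CACGTG, the cAMP response element TGACGTCA, the D-box TTATGTAA or TTACGTAA, and TAGGTCA, the core of the ROR element.
Per3 at chr4:151044616-151044915 (minus strand), with 2 D-box matches: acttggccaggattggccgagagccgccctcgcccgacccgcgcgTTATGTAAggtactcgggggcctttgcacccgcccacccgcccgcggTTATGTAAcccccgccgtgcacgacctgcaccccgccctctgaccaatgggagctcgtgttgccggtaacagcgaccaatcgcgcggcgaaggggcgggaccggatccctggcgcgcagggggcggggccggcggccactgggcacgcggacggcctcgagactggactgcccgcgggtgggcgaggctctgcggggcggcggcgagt
Cry1 at chr10:85185005-85185304 (minus strand), with 1 E-box match: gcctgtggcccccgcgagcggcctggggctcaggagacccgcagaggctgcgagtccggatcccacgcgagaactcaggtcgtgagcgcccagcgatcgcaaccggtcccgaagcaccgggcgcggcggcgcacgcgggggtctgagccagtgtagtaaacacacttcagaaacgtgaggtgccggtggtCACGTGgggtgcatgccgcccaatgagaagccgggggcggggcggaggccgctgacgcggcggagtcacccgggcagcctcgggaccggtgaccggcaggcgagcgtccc
Per1 at chr11:69098699-69098998 (plus strand), the first of 2 listed starts, with 1 E-box match: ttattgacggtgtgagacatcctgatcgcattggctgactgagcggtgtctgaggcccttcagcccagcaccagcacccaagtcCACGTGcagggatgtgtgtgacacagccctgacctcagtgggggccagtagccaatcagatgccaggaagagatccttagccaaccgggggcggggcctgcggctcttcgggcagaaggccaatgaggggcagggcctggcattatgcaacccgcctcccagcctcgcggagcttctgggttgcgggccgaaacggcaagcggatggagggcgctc
Hlf at chr11:90390868-90391167 (minus strand), with 1 match to the cAMP response element: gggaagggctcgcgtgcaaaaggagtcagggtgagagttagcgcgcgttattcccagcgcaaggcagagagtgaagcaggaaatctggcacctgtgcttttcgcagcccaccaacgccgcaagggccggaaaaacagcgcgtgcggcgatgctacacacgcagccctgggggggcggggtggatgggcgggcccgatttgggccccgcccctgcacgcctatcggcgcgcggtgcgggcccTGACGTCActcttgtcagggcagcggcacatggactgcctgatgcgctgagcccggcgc
Arntl at chr7:113207261-113207560 (plus strand), the second of 2 listed starts, with 1 match to the ROR core: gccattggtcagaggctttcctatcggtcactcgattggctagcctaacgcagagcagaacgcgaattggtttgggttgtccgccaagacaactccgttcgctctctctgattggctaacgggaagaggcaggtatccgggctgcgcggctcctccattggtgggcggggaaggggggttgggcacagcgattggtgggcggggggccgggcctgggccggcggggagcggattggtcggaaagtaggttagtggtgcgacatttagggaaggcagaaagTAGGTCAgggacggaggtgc

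Over the 11 start regions that the table holds for the 9 measured genes, an E-box was found in 3 genes (Per1, Cry1 and both starts of Tef), a D-box only in Per3 and the cAMP response element only in Hlf, while no window held TAGGTCA. Among all 32851 start regions of that length in the table, 7.15% hold the E-box, 1.06% a D-box, 1.79% the cAMP response element and 2.61% the ROR core. The windows of Cry2, Nr1d1, Nr1d2 and Dbp held none of these letters, which says nothing of sites elsewhere in those genes. A match is a description of the sequence and does not show that a protein was bound.

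Adipocyte markers were high on all arrays, and brown adipocyte markers varied with group. Adipoq, the adiponectin gene, lay between 11.32 and 12.36 and the lipid droplet gene Plin1 between 10.09 and 10.65 on every array, while Ucp1, the heat-making uncoupling protein, ranged from 8.39 to 13.68 with its lowest value in knockout saline array 1. The mean log2 signal of 7 brown adipocyte markers, of 8 listed, was 9.34 to 9.65 in wild types and 7.70 to 9.28 in knockouts after saline, where Cidea and Elovl3 were called lower and the list had a median difference of -1.09. Across tested genes, Pearson r lay between 0.937 and 0.984 for arrays of the same group and between 0.878 and 0.960 for arrays of different groups. Skeletal muscle RNA varied from mouse to mouse: the mean log2 signal of 10 muscle markers, of 12 listed, ran from 7.08 to 11.39 in wild-type saline, 7.69 to 9.85 in wild-type CL316243, 7.27 to 10.60 in knockout saline and 9.21 to 10.98 in knockout CL316243, and no muscle marker passed the test in any comparison. In whole tissue, fewer cells of a type and less RNA per cell cannot be told apart.

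**Figure D1:**
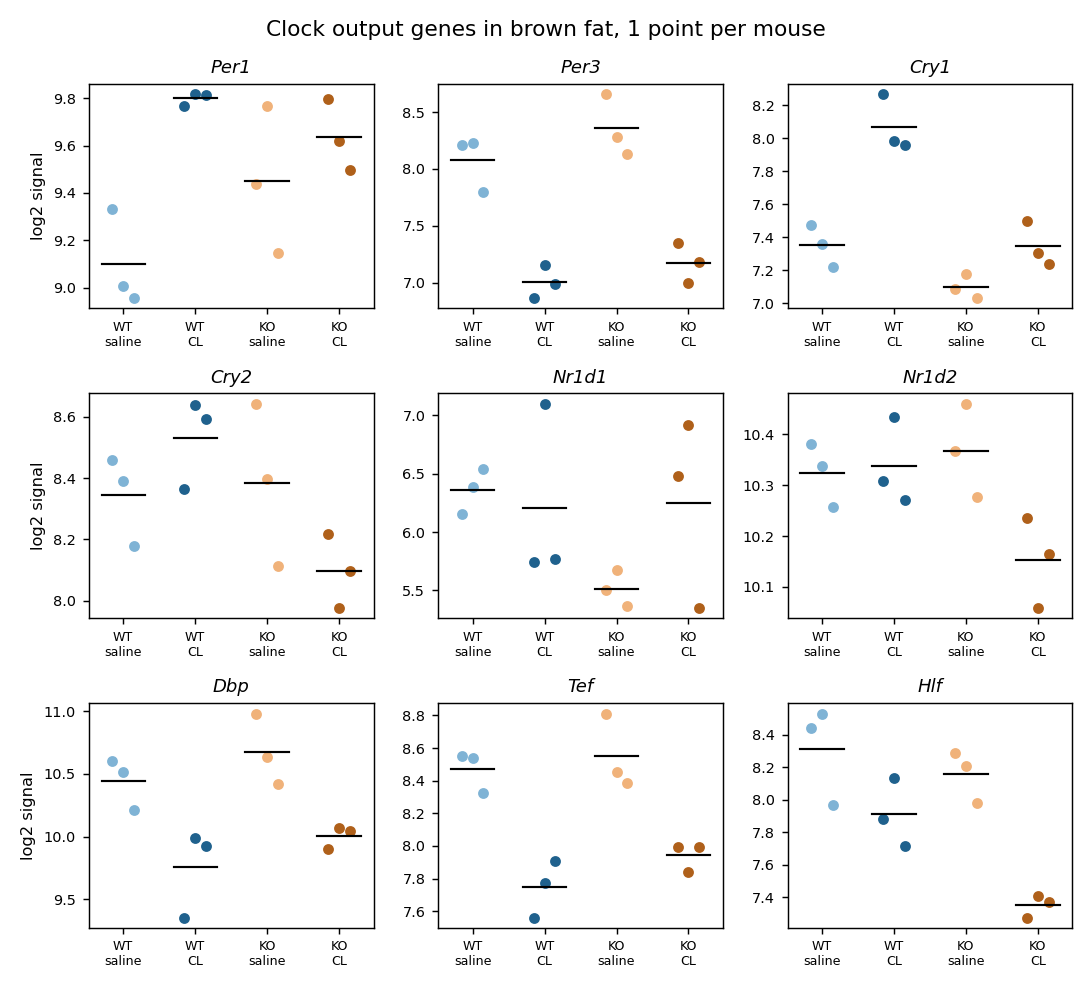
Log2 signal of each of the 9 measured clock output genes (vertical axes, one scale per gene) in the 4 groups of 3 mice, WT for wild type, KO for knockout and CL for CL316243; points are arrays 1, 2 and 3 from left to right and bars are group means. Per3, Dbp and Tef lie lower after CL316243 in both genotypes with no overlap, and Per1 and Cry1 rise without overlap in wild types.

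Of the period genes, Per3 fell after the agonist in both genotypes and Per1 rose in wild types. Per3, whose protein is the least essential of the PER proteins for the rhythm itself, was at 8.21, 8.23 and 7.80 (wild type, saline), 6.87, 7.16 and 6.99 (wild type, agonist), 8.66, 8.28 and 8.13 (knockout, saline) and 7.35, 6.996 and 7.18 (knockout, agonist). All 6 agonist arrays lay below all 6 saline arrays. It fell 2.10-fold in wild types (log2 difference -1.07 ± 0.16, standard error, n = 3 per group, limma adjusted p = 7.35e-04) and 2.27-fold in knockouts (-1.18 ± 0.16, adjusted p = 0.00103). These were the largest falls among the 9 genes in each genotype.

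Per1, a period gene known to answer quickly to outside signals, was at 9.33, 9.01 and 8.96 (wild type, saline), 9.77, 9.82 and 9.81 (wild type, agonist), 9.44, 9.77 and 9.15 (knockout, saline) and 9.80, 9.62 and 9.50 (knockout, agonist). In wild types the agonist arrays stood above the saline arrays and close to each other, and in knockouts the groups overlapped, with knockout saline array 2 above 2 of the 3 agonist arrays. Per1 rose 1.63-fold in wild types (0.70 ± 0.15, adjusted p = 0.00529). In knockouts its difference was 0.19 ± 0.15 (adjusted p = 0.450).

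The cryptochromes are the main repressors of the loop. Cry1 was at 7.47, 7.36 and 7.22 (wild type, saline), 8.27, 7.98 and 7.96 (wild type, agonist), 7.09, 7.17 and 7.03 (knockout, saline) and 7.50, 7.31 and 7.24 (knockout, agonist). The wild-type agonist arrays were the 3 highest of the 12, and the knockout saline arrays the 3 lowest. Cry1 rose 1.65-fold in wild types (0.72 ± 0.11, adjusted p = 7.83e-04). The knockout difference was 0.25 ± 0.11 (adjusted p = 0.138), in groups that did not overlap.

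Cry2 was at 8.46, 8.39 and 8.18 (wild type, saline), 8.36, 8.64 and 8.59 (wild type, agonist), 8.64, 8.398 and 8.11 (knockout, saline) and 8.22, 7.98 and 8.10 (knockout, agonist). The agonist and saline arrays overlapped in both genotypes. Its agonist difference was 0.19 ± 0.14 in wild types (adjusted p = 0.349) and -0.29 ± 0.14 in knockouts (adjusted p = 0.178). Cry2 has a second row of its own, which lay 0.087 to 0.20 log2 units below the row used on every array.

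Of the REV-ERB genes, Nr1d2 had a strong and steady signal on the row used. It was at 10.38, 10.34 and 10.26 (wild type, saline), 10.31, 10.43 and 10.27 (wild type, agonist), 10.37, 10.46 and 10.28 (knockout, saline) and 10.24, 10.06 and 10.16 (knockout, agonist). Only the knockout agonist arrays stood apart, as the 3 lowest of the 12. The agonist difference was 0.01 ± 0.082 in wild types (95% interval -0.17 to 0.19, adjusted p = 0.932) and -0.21 ± 0.082 in knockouts (-0.40 to -0.03, adjusted p = 0.0944). Nr1d2 also has a second, much dimmer row of its own. It lay 3.98 to 4.32 log2 units below the row used, with a Pearson r of 0.75 between the 2 rows over 12 arrays. This row was at 6.06, 6.15 and 5.97 (wild type, saline), 6.33, 6.37 and 6.04 (wild type, agonist), 6.22, 6.35 and 6.09 (knockout, saline) and 5.93, 5.94 and 6.07 (knockout, agonist). With it the agonist difference in wild types was 0.18 and the interaction -0.42. The difference between genotypes after saline was 0.16, and none of these was called.

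Nr1d1 could not be read well. Its own row was at 6.15, 6.38 and 6.54 (wild type, saline), 5.75, 7.10 and 5.77 (wild type, agonist), 5.51, 5.68 and 5.37 (knockout, saline) and 6.48, 6.92 and 5.35 (knockout, agonist), against a floor for low signal of 5.27 to 5.58 on the same arrays. The agonist groups spread over more than 1 log2 unit each. The agonist difference was -0.15 ± 0.40 in wild types (adjusted p = 0.820) and 0.73 ± 0.40 in knockouts (adjusted p = 0.240). Which strand or exons this row reads is not given in the sources, and Nr1d1 overlaps the thyroid hormone receptor gene Thra on the opposite strand, so its values are uncertain.

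Of the PAR bZIP genes, Dbp and Tef fell in both genotypes and Hlf in knockouts. Dbp, whose protein carries clock time to D-box genes, was at 10.60, 10.51 and 10.21 (wild type, saline), 9.35, 9.99 and 9.93 (wild type, agonist), 10.98, 10.63 and 10.42 (knockout, saline) and 9.90, 10.07 and 10.04 (knockout, agonist). Each agonist array lay below each saline array. Dbp fell 1.61-fold in wild types (-0.68 ± 0.18, adjusted p = 0.0165) and 1.60-fold in knockouts (-0.67 ± 0.18, adjusted p = 0.0280). The call ended without wild-type saline array 1 or 2 or wild-type CL316243 array 1 (adjusted p = 0.0535 to 0.0625), and in knockouts without any one of its arrays except knockout saline array 3 (adjusted p = 0.0560 to 0.104).

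Tef, which encodes a close relative of DBP, was at 8.55, 8.54 and 8.32 (wild type, saline), 7.56, 7.77 and 7.91 (wild type, agonist), 8.81, 8.45 and 8.39 (knockout, saline) and 7.995, 7.84 and 7.996 (knockout, agonist). As for Per3, all 6 agonist arrays lay below all 6 saline arrays. Tef fell 1.65-fold in wild types (-0.72 ± 0.13, adjusted p = 0.00182) and 1.52-fold in knockouts (-0.61 ± 0.13, adjusted p = 0.00900).

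Hlf, the third gene of the family, was at 8.44, 8.53 and 7.96 (wild type, saline), 7.88, 8.13 and 7.72 (wild type, agonist), 8.29, 8.21 and 7.98 (knockout, saline) and 7.27, 7.41 and 7.37 (knockout, agonist). The knockout agonist arrays were the 3 lowest of the 12, and in wild types saline array 3 lay among the agonist arrays. Hlf fell 1.75-fold in knockouts (-0.81 ± 0.15, adjusted p = 0.00549). In wild types its difference was -0.40 ± 0.15 (adjusted p = 0.0711), and the call was made without saline array 3 (-0.57, adjusted p = 0.00974) or without CL316243 array 2 (-0.51, adjusted p = 0.0465), and with the muscle score as covariate (-0.43, adjusted p = 0.0354).

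**Figure D2:**
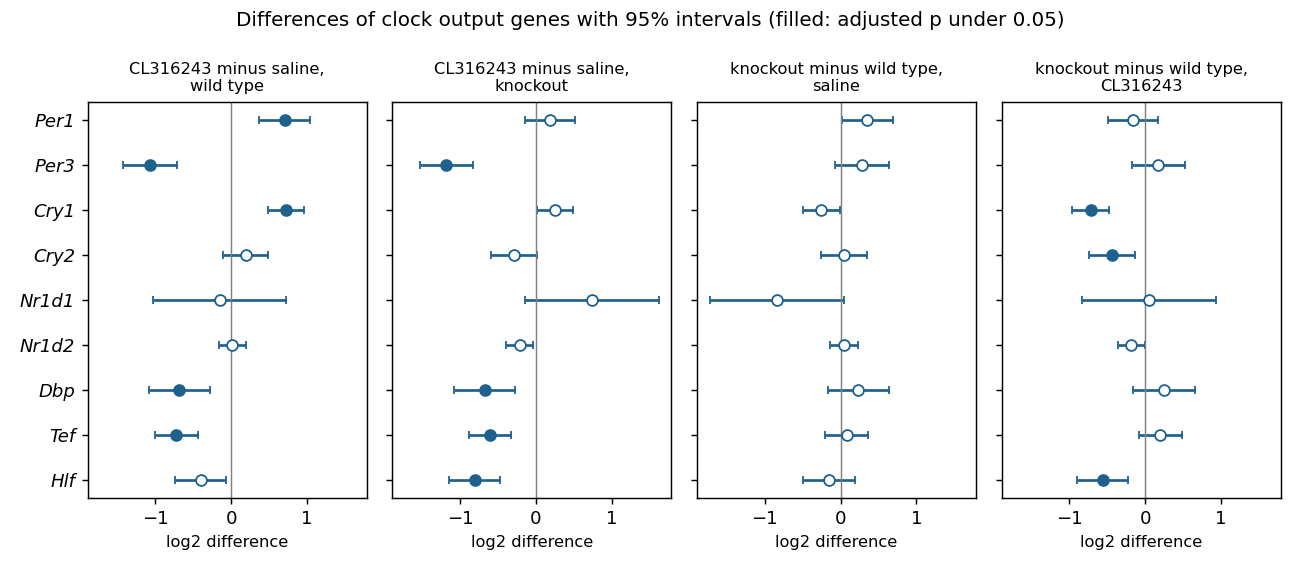
Log2 differences (horizontal axes) of the 9 genes in the 4 comparisons between pairs of groups of 3 mice, with 95% intervals from the limma fit; filled points have an adjusted p under 0.05. Per3, Dbp and Tef are filled and below 0 for CL316243 in both genotypes, and no point is filled for knockout minus wild type after saline.

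Over the 9 genes, 2 rose (Per1 and Cry1) and 3 fell (Per3, Dbp and Tef) after the agonist in wild types, and 4 had no call. Of all 15896 tested genes 29.8% were called there, 11% higher and 18.8% lower. Groups did not overlap for 2 genes upward and 3 downward, where 41% of tested genes had no overlap, 14.3% higher and 26.7% lower. In knockouts none of the 9 rose and 4 fell (Per3, Dbp, Tef and Hlf), where 17.9% of tested genes were called, 7.75% higher and 10.2% lower. Groups there did not overlap for 1 gene upward and 5 downward, against 40.2% of tested genes, 15% higher and 25.2% lower. The median difference of the 9 genes was -0.15 in wild types and -0.29 in knockouts, against -0.07 and -0.06 over all tested genes.

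Whether the response differed with genotype was asked by the interaction, the CL316243 difference in knockouts minus that in wild types. Limma called 0 of the 9 genes, with 3 of 9 at an unadjusted p under 0.05, and 2.04% of tested genes were called, 0.774% with a higher and 1.26% with a lower value. Cry1 had an interaction of -0.47 ± 0.15 (95% interval -0.81 to -0.13, adjusted p = 0.156), Cry2 of -0.48 ± 0.19 (-0.90 to -0.05, adjusted p = 0.253) and Per1 of -0.52 ± 0.21 (-0.98 to -0.05, adjusted p = 0.262). The rise of Per1 and Cry1 in wild types and their lack of a call in knockouts is therefore not shown to be a difference between the genotypes. Among the genes that fell, the interaction was 0.01 for Dbp (-0.56 to 0.58), 0.12 for Tef (-0.28 to 0.51), -0.11 for Per3 (-0.61 to 0.39) and -0.41 for Hlf (-0.88 to 0.07). All 4 intervals include 0.

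**Figure D3:**
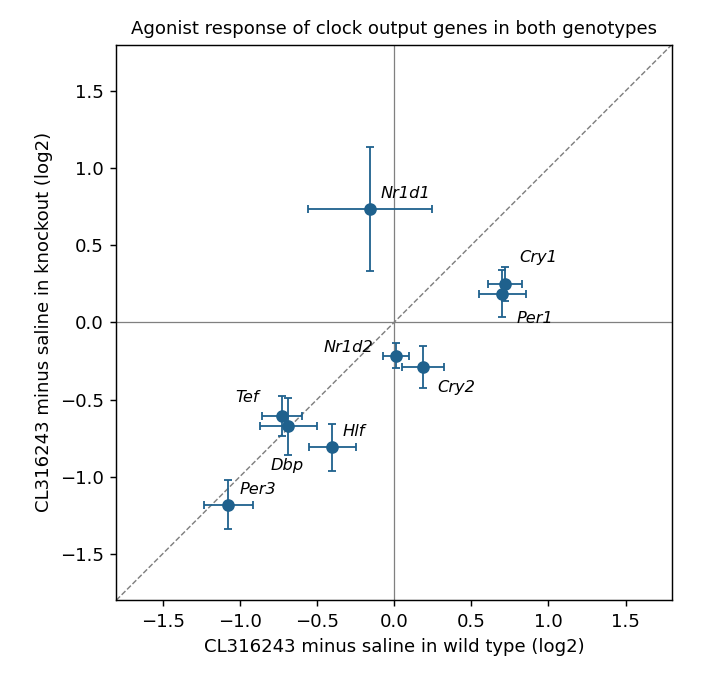
CL316243 minus saline (log2) in wild types on the horizontal axis and in knockouts on the vertical axis for the 9 genes, with standard errors of the limma fit from 3 mice per group; the dashed line marks equal responses. Per3, Dbp and Tef lie near the line at values from -1.18 to -0.61, Per1 and Cry1 lie below it on the right, and Nr1d1 has the widest errors.

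The effect of the knockout without the agonist was read from the saline groups. Limma called 0 of the 9 between knockouts and wild types, with Per1 and Cry1 at an unadjusted p under 0.05, where 11.6% of tested genes were called, 5.44% higher and 6.19% lower. Groups did not overlap for 2 genes, Cry1 and Nr1d1, both lower in knockouts, against 36.8% of tested genes, 14.1% higher and 22.7% lower. Per1 was 0.35 ± 0.15 higher in knockouts (95% interval 0.02 to 0.69, adjusted p = 0.148) and Cry1 -0.25 ± 0.11 apart (-0.49 to -0.01, adjusted p = 0.153). The intervals were narrow for the Nr1d2 row used (-0.14 to 0.22) and wide for Nr1d1 (-1.72 to 0.04). The Nr1d1 row gave -0.84 ± 0.40 (adjusted p = 0.189) with no overlap, and was called when only these 2 groups were fitted (adjusted p = 0.0317).

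After CL316243, 3 of the 9 genes were lower in knockouts than in wild types and none was higher. Of all tested genes 29.5% were called there, 14.7% higher and 14.8% lower. The count is near the share called in either direction and above the share called lower, a gap that was not tested. Groups did not overlap for 4 genes, all lower in knockouts, against 44.8% of tested genes, 21.7% higher and 23.2% lower. Cry1 was 1.65-fold lower (-0.72 ± 0.11, adjusted p = 9.60e-04), with all 3 knockouts below all 3 wild types. Hlf was 1.48-fold lower (-0.56 ± 0.15, adjusted p = 0.0188), a call that ended without wild-type CL316243 array 2 (-0.45, adjusted p = 0.0732) or knockout CL316243 array 1 (-0.52, adjusted p = 0.0634). Cry2 was 1.35-fold lower (-0.43 ± 0.14, adjusted p = 0.0350), which ended with the muscle score as covariate (-0.37, adjusted p = 0.0844) and without wild-type array 2 or 3 or knockout array 2 or 3 of the CL316243 groups (adjusted p = 0.0724 to 0.114). Per3, Dbp and Tef, the genes that fell in both genotypes, differed by 0.17, 0.25 and 0.20 between knockouts and wild types after the agonist, with adjusted p from 0.252 to 0.428. This comparison shares its arrays with the agonist responses above.

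Markers of other cell types also differed with genotype, in part already after saline, where 0 of the 9 genes were called. After saline 4 of 5 macrophage markers were higher in knockouts, as were 3 of 5 of a list for fibroblasts and mesothelium and 1 of 4 of glandular epithelium. None of these was lower, and 2 of 7 brown adipocyte markers were lower. Of all tested genes 5.44% were called higher and 6.19% lower after saline. After CL316243, 4 of 4 markers of glandular epithelium were higher in knockouts (mean log2 signal 7.39 to 8.08 against 5.92 to 6.29 in wild types), as were 4 of 5 macrophage markers (9.28 to 9.49 against 8.32 to 8.62) and 3 of 5 of a list for fibroblasts and mesothelium (8.36 to 8.46 against 7.81 to 7.89), while 6 of 7 brown adipocyte markers were lower (8.79 to 9.17 against 11.09 to 11.23). The 3 were the fibroblast genes Pdgfra, Dpt and Col1a1, and the mesothelial genes Msln (mean 5.42 in knockouts and 5.72 in wild types) and Upk3b (6.45 and 6.75) had no call. Of the other lists, 3 of 5 endothelial markers were lower in knockouts and 2 of 4 Schwann cell and nerve markers higher. Among 5 adipocyte markers 2 were higher and 1 lower, and the 1 erythroid marker tested, Alas2, was lower. No marker of muscle or of T and B cells was called. Over all tested genes 14.7% were called higher and 14.8% lower in this comparison. The part of these markers in the differences of Cry1, Cry2 and Hlf was not tested. Muscle markers had a median difference of 1.51 between the 2 agonist groups. Their mean log2 signal overlapped, at 9.21 to 10.98 in knockouts and 7.69 to 9.85 in wild types. With the muscle score as covariate Cry1 differed by -0.68 (adjusted p = 0.00293) and Hlf by -0.45 (adjusted p = 0.0476), and Cry2 lost its call (-0.37, adjusted p = 0.0844). The part of muscle in these differences was not tested further.

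Arntl and Nfil3, partners of these genes in the loop, rose after the agonist in both genotypes. Arntl, the gene of BMAL1 whose start region holds the ROR core, was at 6.04, 6.25 and 6.38 (wild type, saline), 7.996, 7.89 and 7.90 (wild type, agonist), 6.05, 5.97 and 6.24 (knockout, saline) and 7.33, 6.88 and 6.98 (knockout, agonist). It rose 3.26-fold in wild types (1.71 ± 0.13, adjusted p = 1.27e-05) and 1.96-fold in knockouts (0.97 ± 0.13, adjusted p = 9.03e-04). After the agonist it was lower in knockouts than in wild types by -0.87 ± 0.13 (adjusted p = 8.57e-04), with an interaction of -0.73 ± 0.18 (adjusted p = 0.0663).

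Nfil3, the D-box repressor that opposes DBP, TEF and HLF, was at 7.69, 7.58 and 7.76 (wild type, saline), 9.33, 9.44 and 9.83 (wild type, agonist), 6.75, 7.09 and 6.88 (knockout, saline) and 9.33, 8.89 and 8.93 (knockout, agonist). It rose by 1.86 ± 0.15 in wild types (adjusted p = 1.95e-05) and by 2.14 ± 0.15 in knockouts (adjusted p = 3.90e-05). Its agonist arrays lay more than 1 log2 unit above its saline arrays in both genotypes. In knockouts Nfil3 was lower than in wild types after saline (-0.77 ± 0.15, adjusted p = 0.0119) and after CL316243 (-0.48 ± 0.15, adjusted p = 0.0351).

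Bhlhe41, an E-box repressor also called Dec2, fell in wild types (-0.90 ± 0.16, adjusted p = 0.00209) and was higher in knockouts than in wild types after the agonist (1.07 ± 0.16, adjusted p = 9.92e-04). Its agonist difference in knockouts was -0.22 ± 0.16 (adjusted p = 0.401), and its interaction of 0.68 ± 0.23 was not called (adjusted p = 0.168). Its relative Bhlhe40 had no call (agonist differences -0.52 ± 0.28 in wild types and 0.07 ± 0.28 in knockouts). Of 6 tested repressors and competitors, 1 rose (Nfil3) and 2 fell in wild types (Bhlhe41 and Tipin). The list median was -0.35, and 11% and 18.8% of all tested genes were called higher and lower. In knockouts only Nfil3 was called. Tipin fell in wild types (-0.45 ± 0.11, adjusted p = 0.00820) and was 0.38 ± 0.11 higher in knockouts after the agonist (adjusted p = 0.0205). Its wild-type agonist signal was low (5.34 to 5.51, floor 5.35 to 5.58). Clock, whose protein pairs with BMAL1, differed by 0.38 ± 0.16 and 0.35 ± 0.16 without a call (adjusted p = 0.0925 and 0.147). Its relative Npas2 differed by 0.11 ± 0.12 and 0.29 ± 0.12, the activator gene Rora by 0.17 ± 0.13 and 0.10 ± 0.13, and Ciart, a repressor of CLOCK and BMAL1, by 0.17 ± 0.20 and 0.18 ± 0.20, all without a call. Among 6 tested clock activators, 1 rose in wild types (Arntl) and 1 fell, Arntl2, a relative of Arntl (-1.27 ± 0.18, adjusted p = 5.99e-04). Of all tested genes 11% were called higher and 18.8% lower there, so these counts are near what all genes showed. Arntl2 was also lower in knockouts than in wild types after saline (-0.70 ± 0.18, adjusted p = 0.0337). Its agonist difference in knockouts was -0.25 ± 0.18 (adjusted p = 0.406), in groups that did not overlap. Its interaction of 1.03 ± 0.26 was not called (adjusted p = 0.0701). Rorb, of the ROR family, was lower in knockouts after saline (-0.33 ± 0.083, adjusted p = 0.0311) and after CL316243 (-0.44 ± 0.083, adjusted p = 0.00300). Its signal was low, at 5.46 to 5.63 on the knockout arrays, where the floor for low signal was 5.27 to 5.41.

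**Figure D4:**
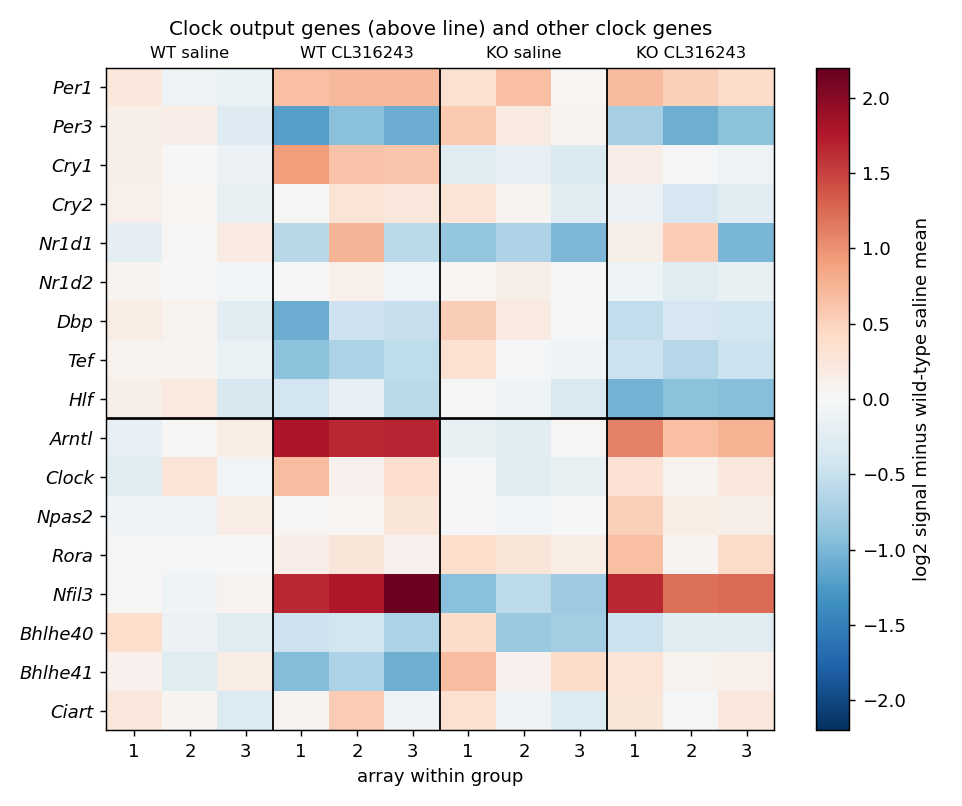
Log2 signal minus the wild-type saline mean of each gene (colour, from -2.2 to 2.2) on the 12 arrays in 4 groups of 3, for the 9 clock output genes above the line and 8 other clock genes below it. Arntl and Nfil3 are red on all 6 agonist arrays, and Per3, Dbp, Tef and Hlf are blue there.

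Of the other pathway genes, 4 of 10 tested kinases and turnover factors of clock proteins rose in wild types and 3 in knockouts and none fell, where 11% and 7.75% of all tested genes were called higher and 18.8% and 10.2% lower. The largest differences among those called were those of the casein kinase gene Csnk1d in wild types (0.62 ± 0.072, adjusted p = 1.47e-04) and of the ubiquitin ligase gene Fbxw11 in knockouts (0.36 ± 0.11, adjusted p = 0.0387). The median of that list was 0.19 in both genotypes, against -0.07 and -0.06 over all tested genes. Of 9 tested genes known to follow the clock in many tissues, 1 rose in wild types, the cell cycle inhibitor Cdkn1a (1.47 ± 0.19, adjusted p = 3.02e-04), a share near the 11% of all tested genes. In knockouts Cdkn1a rose (0.99 ± 0.19) and 2 fell, Nampt of NAD synthesis (-0.76 ± 0.14, adjusted p = 0.00433) and the factor gene Klf15 (-0.71 ± 0.18, adjusted p = 0.0186). Of all tested genes 7.75% were called higher and 10.2% lower in knockouts.

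Per1 is known as a target of both CREB and the glucocorticoid receptor, and genes of both kinds rose. Whether either acted on Per1 here was not tested. Of 12 CREB early genes 8 rose in wild types (median 1.04) and 5 in knockouts (median 0.42), and 5 were lower in knockouts than in wild types after the agonist. Over all tested genes the shares were 11% higher, 7.75% higher and 14.8% lower in the same order. Ppargc1a, a coactivator gene of thermogenesis, rose by 4.17 ± 0.24 in wild types (adjusted p = 2.52e-06) and by 2.64 ± 0.24 in knockouts (adjusted p = 1.39e-04). Its interaction was -1.54 ± 0.33 (adjusted p = 0.0433), and that of the nuclear receptor gene Nr4a2 was -1.84 ± 0.30 (adjusted p = 0.0131). Of 9 tested glucocorticoid-responsive genes 6 rose in wild types (median 0.89) and 6 in knockouts (median 0.99), against the same 11% and 7.75% of all tested genes. Among them the chaperone gene Fkbp5 rose by 1.52 ± 0.18 and 1.34 ± 0.18 in the same order, and the metallothionein gene Mt2 rose in knockouts by 1.56 ± 0.21 (adjusted p = 9.93e-04). Dusp1 is on both of these lists, and Cdkn1a, Tsc22d3 and Klf9 are on the glucocorticoid and clock-controlled lists. Ppargc1a is on the lists of CREB early genes and of brown adipocyte markers, and Usp2 on those of turnover factors and of clock-controlled genes. No list was tested as a whole.

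Mice of the same group also differed in these genes together. In knockout saline, array 3 had the lowest value of the group for 9 of 9 genes, where 34.0% of all tested genes had their lowest value on that array. In wild-type saline, array 3 was the lowest for 8 of 9, all but Nr1d1, against 42.3% of tested genes. Arntl was highest of its group on these same arrays, at 6.38 and 6.24. Among the saline arrays the muscle markers were at 11.39 on array 3 of wild types, the highest of its group, and at 10.56 on array 3 of knockouts, beside 10.60 on array 2, and their part in the order was not tested. In wild-type CL316243, array 1 was the lowest for 6 of 9 genes and array 2 the highest for 7, against 38.0% and 23.5% of tested genes.

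Over the 12 arrays the signals of Per3, Tef and Dbp followed each other closely, with Pearson r of 0.97 for Per3 with Tef, 0.95 for Dbp with Tef and 0.92 for Per3 with Dbp. Hlf followed them less closely (0.72 with Per3, 0.64 with Tef and 0.61 with Dbp), and had its highest r among the 9 genes with Nr1d2 (0.78). Cry1 ran opposite to Dbp (-0.76) and Tef (-0.74). These values describe arrays that share the differences between the 4 groups. Among the other tested genes, the patterns most like those of the 7 genes with a call were those of Ift46 for Per3 (r = 0.98), Hoxc4 for Tef (0.97), Iah1 for Dbp (0.96), Aldh5a1 for Hlf (0.97), Plpbp for Cry1 (0.98), Unc45a for Per1 (0.94) and Gm6860 for Cry2 (0.92).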

How the data were processed

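Whole-transcriptome signals of brown fat from 12 mice were measured on Affymetrix mouse exon arrays, 1 array per mouse and 3 mice per group. The deposited table holds log2 values that the authors made with RMA in Partek, with mm9 as the build, per the submitters' processing notes; versions are not given in the sources used here. Of its 115830 rows, the platform table assigned 25539 to 1 gene, 2300 to several and listed 87991 not at all; only rows of 1 gene were used, the brightest per gene (20259 genes). Genes above each array's 25th percentile in at least 3 arrays were kept (15896). Limma 3.58.1 in R 4.3.3 fitted 1 mean per group over all 12 arrays with eBayes, and p-values were adjusted over all tested genes by Benjamini-Hochberg, with a call at an adjusted p under 0.05. Errors are standard errors of that fit unless named otherwise. The fit was tested on simulated data. The number of arrays limits the precision, and no batch or pairing is named in the labels.

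The genes, lists and tests were chosen with earlier results of these data known. All clock outputs are described. Arntl, Clock, Npas2, Rora, Nfil3, Bhlhe40, Bhlhe41 and Ciart are named with values whether or not called (a further gene of that rule is not reported here), and from the other lists at most the 3 called genes with the largest differences per comparison. The patterns most like a gene were those with the highest Pearson r among tested genes, for each clock output with a call. Alternatives were another normalization, filter, row choice, moderation and threshold, array weights, a replicate block, a muscle score as covariate, only the groups compared, and leaving out each array.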

Additional observations from a re-analysis of the deposited data

Results flagged for a closer look

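Signal was also present in rows that no comparison above uses, because each is listed under 2 genes and can be attributed to neither. The row listed under Per2 and 9830107B12Rik was 0.38 higher after CL316243 than after saline in wild types (8.56 ± 0.091 against 8.18 ± 0.19, SD, n = 3 each, log2 signal), with no overlap, and 0.18 higher in knockouts, where the groups overlapped. The row listed under Nr1d1 and Thra was 0.26 higher after CL316243 in knockouts (10.41 ± 0.085 against 10.16 ± 0.15, SD, n = 3 each), with no overlap, and differed by -0.07 in wild types, where the groups overlapped. Neither difference was tested.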

How the results depend on the processing

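Under 25 alternative settings, 1 of them (the other row of Cry2 and Nr1d2) chosen after seeing the data, 1056 of 1111 values of the 9 genes kept their direction and their side of the threshold. No value called in either fit changed direction. The calls of Per1 and Cry1 in wild types, Per3 and Tef in both genotypes and Hlf in knockouts, and that of Cry1 between genotypes after CL316243, held under all 25. The number of genes called between genotypes after saline went from 0 to 1 (Nr1d1) with only the groups compared, and after CL316243 from 3 to 1 at an adjusted p under 0.01. With array weights it went to 4, the gain being Nr1d2 (-0.25, adjusted p = 0.0147). Leaving out 1 array gave 4 to 6 calls for CL316243 in wild types, 3 to 4 in knockouts, 0 to 0 after saline, 1 to 3 after CL316243 (1 without wild-type CL316243 array 2) and 0 to 0 for the interaction.

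Reversals were of values with no call. The Dbp interaction was -0.035 with arrays centred on the median and -0.011 with array weights, and -0.19 to 0.16 with 1 array left out. The wild-type agonist difference of Nr1d2 was -0.019 after quantile normalization. Array weights gave 0.47 for Nr1d1 in wild types, -0.046 for Cry2 between genotypes after saline and -0.56 for Nr1d1 between genotypes after CL316243, which was -0.0097 with the muscle covariate. With 1 array left out, the ranges were -0.035 to 0.046 for Nr1d2 and -0.60 to 0.075 for Nr1d1 in wild types, -0.088 to 0.18 for Cry2, -0.052 to 0.16 for Tef and -0.003 to 0.089 for Nr1d2 between genotypes after saline, -0.29 to 0.49 for Nr1d1 between genotypes after CL316243, and -0.22 to 0.045 for the Per3 interaction. The causes were not tested.

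Replicate numbers are shared by the groups. Deviations of same-numbered arrays from their group means had r from -0.30 to 0.48 over 18 pairs, 7 of them above 0.1. The array 3 pair of the saline groups was at 0.38. Differently numbered arrays were not compared, so these values cannot tell whether arrays of the same number belong together. With the replicate block the counts called were 6, 4, 0, 3 and 0 in the order above, the gain being Hlf in wild types (-0.40, adjusted p = 0.0291). Fitting only the groups compared was not possible for the interaction, and a filter at the 50th percentile left Nr1d1 out. With 3 arrays per group and a dim Nr1d1 row, small differences could not be resolved.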
